A study of Mus musculus with 5 samples.

Results

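The matrix-binding integrins examined here are 10 genes, Itga1, Itga2, Itga4, Itga5, Itga8, Itga11, Itgav, Itgb1, Itgb3 and Itgb5, taken by symbol from the 55401 genes of 1 deposited expression table. All 10 were found, and 7 of them averaged 1 FPKM or more across the 5 libraries and are called measured (FPKM is a fragment count divided by exon length and by library size). The cells were wild-type mouse bone marrow mesenchymal stem cells (BMSCs), adherent marrow stromal cells that can form bone, fat and cartilage. They were grown for 72 h, and 4 cultures were held under continuous negative pressure (NP) for 48 h at -80, -120, -160 or -200 mmHg, while the control was labelled 0 mmHg. Each of the 5 conditions had 1 RNA-seq library, so no difference has a replicate check and no test between conditions was made. The series asks how gene expression differs between these applied pressures.

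Integrins are membrane receptors made of an alpha and a beta chain, and they tie the extracellular matrix outside a cell to the actin cytoskeleton inside it. The alpha chain largely sets the ligand: some read collagen, some laminin, and others the arginine-glycine-aspartate (RGD) motif of fibronectin, vitronectin and osteopontin. In stromal and bone-forming cells the pairs of Itgb1 with collagen-binding and fibronectin-binding alpha chains carry adhesion and the sensing of matrix stiffness.

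The libraries held 16600622 to 18398911 reads, recovered from the FPKM step of each library. The 0 mmHg library stood apart from the others. Uty, Kdm5d, Ddx3y and Eif2s3y, 4 genes of the Y chromosome, had 2493 reads there and 0 reads in each pressure library. Whether a difference from it goes with pressure or with another origin of those cells cannot be told apart. Over all 12113 measured genes the median of the pressure libraries was itself 0.14 to 0.16 above the 0 mmHg library on the log2 scale. Stromal markers were present in all libraries (Pdgfra at 44.3 to 71.5 FPKM, Pdgfrb at 47.3 to 64.9 FPKM, Prrx1 at 21.6 to 27.4 FPKM). So were Ly6a (Sca-1), at 1741 FPKM at 0 mmHg and 622 to 828 FPKM under pressure, Cxcl12, at 201 and 129 to 140 FPKM, and Cd44, at 14.5 to 18.5 FPKM in all libraries. Ly6a was the 1 of 11 measured BMSC markers at least 2-fold lower at all 4 pressures (as log2(FPKM + 1)), but not with quantile normalization. At least 2-fold higher at all 4 were 0 of the 11. The shares over all measured genes were 4.46% lower and 6.49% higher. No other measured BMSC marker passed 2-fold at all 4 pressures on this scale, where the added 1 shrinks the differences of low genes. In FPKM some low markers differed by more than Ly6a. Thy1 stood at 0.0181 FPKM in the 0 mmHg library and 1.001 to 1.83 FPKM under pressure. Nt5e stood at 0.322 and 0.875 to 1.28 FPKM, Lepr at 0.0308 and 0.205 to 0.393 FPKM, and Mcam at 0.243 and 0.971 to 1.56 FPKM. Alcam lay on the other side, at 1.05 FPKM at 0 mmHg and 0.135 to 0.236 FPKM under pressure.

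Of the 10 genes 9 had an entry in the RefSeq promoter table (GRCm38.p6). The 250 bases before the start are shown for Itga11 and Itgb5, the measured members with the highest and lowest mean log2 difference, and for Itgb1, the most abundant member. They lie at chr9:62677605-62677854 (Itga11), chr16:33829415-33829664 (Itgb5) and chr8:128685404-128685653 (Itgb1), all on the plus strand. The start is that of the promoter table. For Itga11 the window runs past the gene start given below, chr9:62677826, so its last bases lie inside that gene span. Capitals mark exact matches on either strand to GGGCGG (Sp1), GGAATG (TEAD), CAGAC (SMAD), TGTGGT (RUNX), TGACTCA (AP-1) or TATAAA (the TBP motif).
Itga11: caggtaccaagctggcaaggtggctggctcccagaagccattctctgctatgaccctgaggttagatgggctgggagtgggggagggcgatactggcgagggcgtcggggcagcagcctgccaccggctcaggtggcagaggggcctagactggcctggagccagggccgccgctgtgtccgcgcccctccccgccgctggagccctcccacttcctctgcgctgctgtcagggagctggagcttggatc
Itgb5: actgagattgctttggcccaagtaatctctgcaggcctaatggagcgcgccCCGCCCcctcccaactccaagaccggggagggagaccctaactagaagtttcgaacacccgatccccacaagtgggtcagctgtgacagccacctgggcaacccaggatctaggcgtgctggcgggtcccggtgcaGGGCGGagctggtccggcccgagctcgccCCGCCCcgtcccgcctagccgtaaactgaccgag
Itgb1: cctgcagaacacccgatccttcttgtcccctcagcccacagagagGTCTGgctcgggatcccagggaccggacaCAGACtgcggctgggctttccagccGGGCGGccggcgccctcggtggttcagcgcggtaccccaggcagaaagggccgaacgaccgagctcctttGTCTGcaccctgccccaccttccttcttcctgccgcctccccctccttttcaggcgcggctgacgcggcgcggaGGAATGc

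The Itgb5 window held 3 matches to GGGCGG, 34, 63 and 199 bases before the start, and none of the others. The Itgb1 window held 1 match to GGGCGG, 1 to GGAATG and 3 to CAGAC, while the Itga11 window held none of the 6 motifs. Among all 32851 windows of the same length in the table, 32.7% held GGGCGG, 12.6% GGAATG, 42.2% CAGAC, 14.1% TGTGGT, 4.46% TGACTCA and 12.4% TATAAA. The G and C content was 68.4% in the Itga11 window, 65.2% for Itgb5 and 68.0% for Itgb1, against a median of 52.4% over the table. A match is a string of letters and not a measured site.

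The first comparison was of each pressure with the 0 mmHg library. Values were set against each other as log2(FPKM + 1), where the added 1 shrinks the differences of low genes. The size rule asks of a measured gene a difference of 2-fold or more, in 1 direction, at each of the 4 pressures. Measured genes were chosen by their mean over 5 libraries, 4 of them under pressure. This lets in genes that are high under pressure more readily than genes that are high at 0 mmHg. Itga1, at 0.684 FPKM at 0 mmHg, was measured only through its pressure values. Among the 7 measured members 1 rose (Itga11) and 1 fell (Itgb5) by this rule, 4 passed it at no pressure, and Itgav passed it at -80 mmHg alone. Of all 12113 measured genes 6.49% rose and 4.46% fell at all 4 pressures and 78.1% passed at no pressure, beside 10.9% that passed in either direction. Taken pressure by pressure, 2 members (Itga11 and Itgav) were at least 2-fold higher and 1 (Itgb5) lower at -80 mmHg, where 10.7% of all measured genes were higher and 6.89% lower. At -120, -160 and -200 mmHg 1 member was higher and 1 lower each time, while 8.85%, 9.59% and 9.1% of all measured genes were higher and 6.45%, 6.03% and 6.38% lower. The median difference of the measured members was 0.69, 0.57, 0.72 and 0.71 at -80, -120, -160 and -200 mmHg, beside medians of 0.16, 0.14, 0.15 and 0.14 over all measured genes. The mean of the 4 member medians was 0.67, but 0.28 with a pseudocount of 5 and 0.24 over all 10 members with no filter, so its size depends on these choices. The 0 mmHg value lay outside the range of the pressure libraries in 7 of 7 measured members, as it did in 84.9% of all measured genes.

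**Figure D1:**
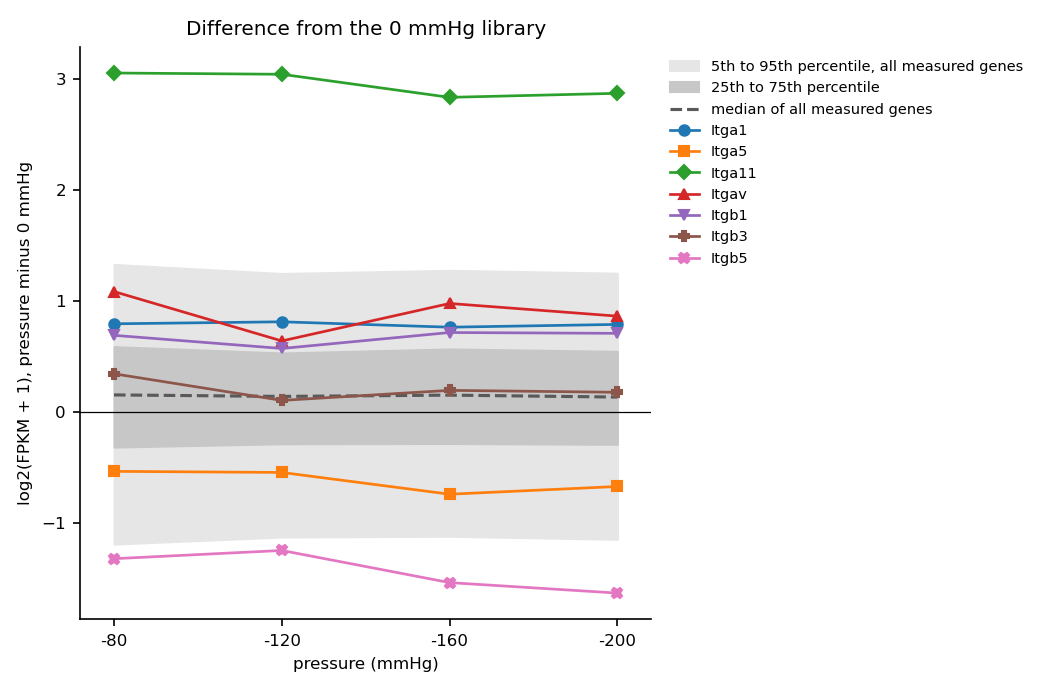
Difference of each pressure library from the 0 mmHg library on the log2(FPKM + 1) scale (y axis) by pressure in mmHg (x axis) for the 7 measured members, with the median and percentile bands of all 12113 measured genes in grey. Itga11 lies near 3 and Itgb5 below -1.2 at every pressure, both outside the 5th to 95th percentile band, and the other 5 members lie within it.

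Among the collagen receptors, Itga11 rose by the size rule. It encodes the alpha chain that binds fibrillar collagen on fibroblasts and other mesenchymal cells and pairs with Itgb1 (chr9:62677826-62783982, plus strand, GRCm38). Itga11 stood at 1.95 FPKM at 0 mmHg and at 23.5, 23.3, 20.0 and 20.6 FPKM at -80, -120, -160 and -200 mmHg. All 4 pressure libraries were high and the 0 mmHg library low, with 184 reads there against 1748 to 2004. Per library total this was 12.0 times the 0 mmHg reads at -80 mmHg (95% Clopper-Pearson interval 10.4 to 14.1) and 10.3 times at -160 mmHg (8.82 to 12.0), the lowest of the 4 ratios. Such intervals hold the error of counting alone and leave out variation between cultures. The reads carry no molecular identifiers and need not be separate molecules, so the intervals may be too narrow even for counting. In a bulk culture, fewer cells of a type and less RNA per cell cannot be told apart. Of the 12113 measured genes 18 had a higher mean difference than Itga11 over the 4 pressures.

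Itga1, which binds collagen IV and other collagens, stood at 0.684 FPKM at 0 mmHg and at 1.92, 1.96, 1.86 and 1.91 FPKM at the pressures in the same order. The pressure libraries were level with each other and all above the 0 mmHg library, at 2.72 times its reads at -160 mmHg (2.34 to 3.18) and 2.87 times at -120 mmHg (2.46 to 3.35). On the log2(FPKM + 1) scale the difference was 0.77 to 0.81 and missed the size rule, but with a pseudocount of 0.1 Itga1 passed it at all 4 pressures. Itga1 (chr13:114953096-115101964, minus strand) overlaps Pelo, a ribosome rescue factor at 2.20 to 3.76 FPKM, on the same strand, and reads of overlapping genes may be shared.

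Itga2, the collagen receptor alpha chain known from platelets and epithelia, had 0 reads at 0 mmHg and 32, 13, 29 and 28 reads at -80, -120, -160 and -200 mmHg. Against a floor of 3 reads per library, its level was at least 11.8-fold higher at -80 mmHg and at least 4.80-fold higher at -120 mmHg. The lower 95% limits of the read ratios, from counting error, were smaller, at 9.05 and 3.38. It remained scarce under pressure, at 0.110 to 0.270 FPKM, and was not among the measured genes. Itga10, the remaining collagen-binding alpha chain and known from cartilage, is not among the 10 genes. Its values were 0.681 FPKM at 0 mmHg and 0.498 to 0.876 FPKM under pressure, and the interval of its read ratio held 1 at each pressure.

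**Figure D2:**
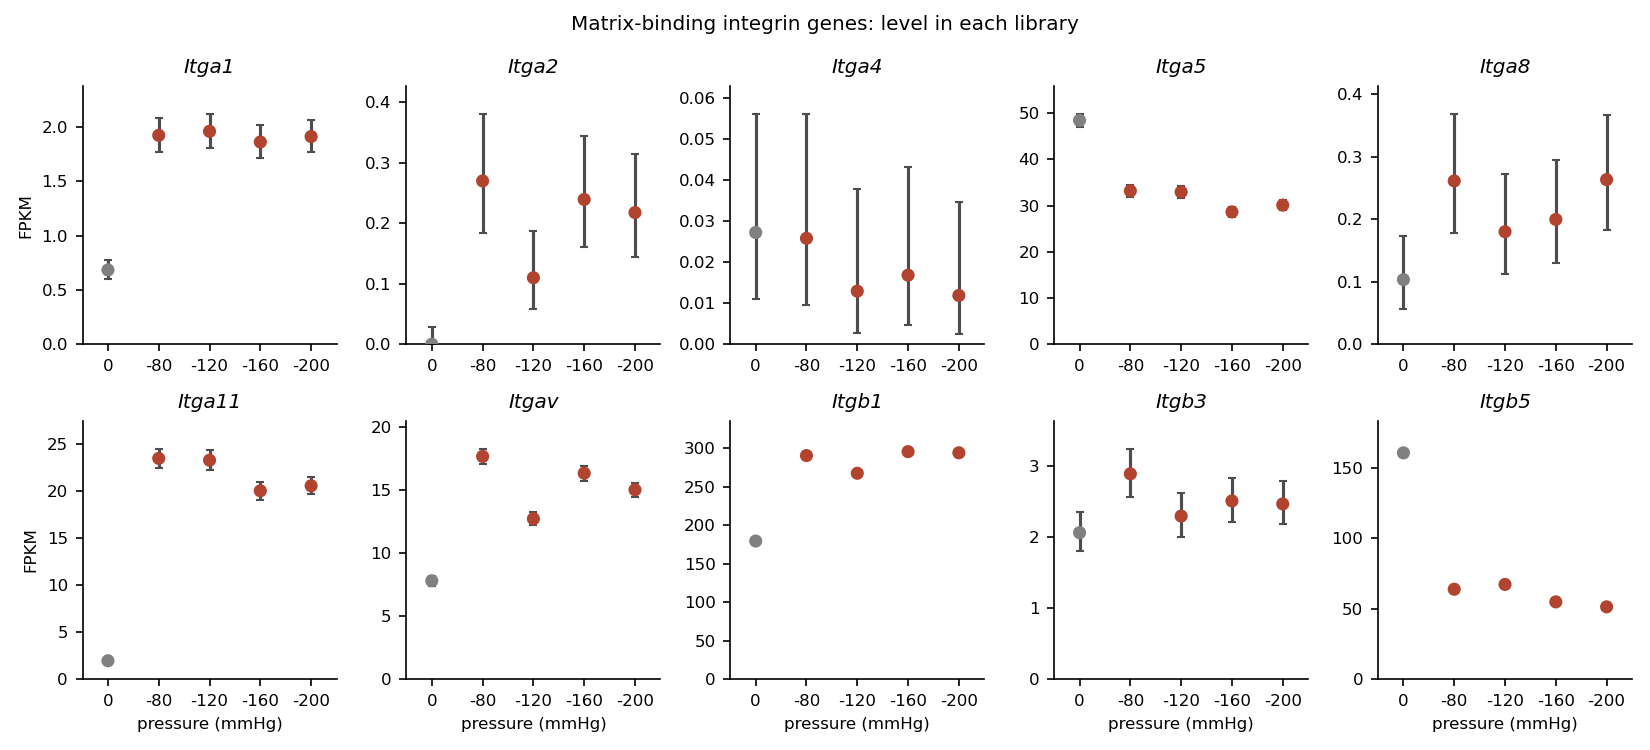
FPKM (y axis, from 0, scaled to each gene) of the 10 genes in the 5 libraries (x axis, pressure in mmHg), with exact Poisson 95% intervals of the read count as bars. Itga11 and Itga1 are low at 0 mmHg (grey) and higher at each pressure (red), and Itga1 is level across the pressures. Itgb5 and Itga5 are high at 0 mmHg, and the intervals of Itga4 overlap in all 5 libraries.

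Among the RGD receptors the alpha chains lay on both sides of the 0 mmHg library, and none passed the size rule at all 4 pressures. Itga5, the alpha chain of the classical fibronectin receptor (chr15:103344286-103366763, minus strand), stood at 48.4 FPKM at 0 mmHg and at 33.2, 32.9, 28.6 and 30.1 FPKM at the pressures. Each pressure library was below the 0 mmHg library, with read ratios from 0.591 (0.562 to 0.621) at -160 mmHg to 0.685 (0.653 to 0.719) at -80 mmHg. The log2 difference of -0.74 to -0.53 did not reach 2-fold at any pressure. Of all measured genes 13.2% had a lower mean difference.

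Itgav pairs with several beta chains, Itgb1, Itgb3 and Itgb5 among them, in receptors for vitronectin, fibronectin and latent TGF-beta (chr2:83724397-83806916, plus strand). Itgav stood at 7.80 FPKM at 0 mmHg and at 17.7, 12.7, 16.3 and 15.0 FPKM at the pressures. All 4 values lay above 0 mmHg, with -120 mmHg the lowest of them, and the log2 difference was 1.09 at -80 mmHg and 0.64 at -120 mmHg. Per library total the reads were 2.27 times those at 0 mmHg (2.13 to 2.41) at -80 mmHg and 1.63 times (1.53 to 1.74) at -120 mmHg. They were 2.09 times (1.97 to 2.23) at -160 mmHg and 1.93 times (1.81 to 2.05) at -200 mmHg. At -160 mmHg the log2 difference of 0.98 just missed 2-fold with the added 1.

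Itga8, the nephronectin receptor alpha chain known from smooth muscle and mesangial cells, had 14 reads at 0 mmHg and 32, 22, 25 and 35 at the pressures, or 0.103 FPKM and 0.180 to 0.263 FPKM. The interval of its read ratio lay above 1 at -80 mmHg (1.31 to 5.13) and -200 mmHg (1.34 to 5.13) and held 1 at -120 and -160 mmHg. Itga4, which binds VCAM-1 and fibronectin and is known from leukocytes, had 7 reads at 0 mmHg and 6, 3, 4 and 3 at the pressures. A difference in Itga4 was not detectable at this depth, since the interval of its read ratio held 1 at all 4 pressures.

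The beta chains also differed from each other. Itgb1, the common partner of the collagen, laminin and fibronectin alpha chains (chr8:128685654-128733200, plus strand), was the most abundant member in every library. It stood at 179 FPKM at 0 mmHg and at 290.4, 267, 296 and 294 FPKM at -80, -120, -160 and -200 mmHg. All pressure libraries lay above the 0 mmHg library, by 1.49 times its reads (1.46 to 1.52) at -120 mmHg and 1.65 times (1.61 to 1.68) at -160 mmHg. The log2 difference of 0.57 to 0.72 stayed below the size rule, and its mean over the pressures moved from 0.67 to 0.46 with upper-quartile scaling and to 1.02 with quantile normalization.

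Itgb5, the vitronectin receptor beta chain that pairs with Itgav (chr16:33829665-33949338, plus strand), fell by the size rule. It stood at 161 FPKM at 0 mmHg and at 63.9, 67.3, 54.9 and 51.4 FPKM at the pressures. No pressure library came near the 0 mmHg value, and the log2 difference ran from -1.63 at -200 mmHg to -1.24 at -120 mmHg. The 0 mmHg library held 3.13 times the reads of -200 mmHg per library total (3.01 to 3.26) and 2.39 times those of -120 mmHg (2.30 to 2.48). Of all measured genes 2.88% had a lower mean difference.

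Itgb3 encodes the other vitronectin receptor beta chain and is the one used by osteoclasts and platelets (chr11:104608000-104670476, plus strand). It stood at 2.06 FPKM at 0 mmHg and at 2.89, 2.30, 2.51 and 2.47 FPKM at the pressures. The values were close to each other, and the interval of the read ratio held 1 at -120 mmHg (0.921 to 1.35) and at -200 mmHg (0.997 to 1.44). Its direction also depended on scaling: Itgb3 was above 0 mmHg at 4 of 4 pressures as deposited, at 3 with a trimmed mean of log ratios or upper-quartile scaling, and at 1 with quantile normalization. No other measured member changed direction at any pressure under these scalings.

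Ranked by FPKM, the order at 0 mmHg was Itgb1, Itgb5, Itga5, Itgav, Itgb3, Itga11, Itga1, Itga8, Itga4 and Itga2. In every pressure library the leading 7 genes were Itgb1, Itgb5, Itga5, Itga11, Itgav, Itgb3 and Itga1, so Itga11 stood in the fourth place instead of the sixth. Neighbours whose Poisson intervals overlapped were Itgb3 with Itga11 and Itga4 with Itga2 at 0 mmHg, Itgb3 with Itga1 at -120 mmHg, and Itga2 with Itga8 at all 4 pressures. Itgb1 was above 97.7% of the measured genes at 0 mmHg and above 98.8% to 98.9% under pressure, while Itga11 was above 18.5% at 0 mmHg and above 77.7% to 81.1% under pressure. FPKM is per kilobase of all annotated exons, untranslated parts included, so a gene with long untranslated exons such as Itga1 (18599 nt of exon, against 5131 nt for Itga11) would read low where shorter transcripts are used.

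The make-up of the alpha chains able to pair with Itgb1 (the genes Itga1 to Itga11 and Itgav) was described by their share of the summed FPKM. The collagen-binding chains made up 4.04% of the sum at 0 mmHg and 23.9%, 24.7%, 22.9% and 24.3% at -80, -120, -160 and -200 mmHg. Itga11 held 2.38% of the sum at 0 mmHg and 20.2% to 22.2% under pressure, and so made up most of the collagen-binding share under pressure. Itga5 held 59.0% of the sum at 0 mmHg and 28.9% to 31.4% under pressure. The laminin-binding chains Itga3, Itga6 and Itga7 differed less, at 27.2% of the sum at 0 mmHg and 28.9% to 31.5% under pressure. The ratio of Itga5 to Itga11 FPKM was 24.9 at 0 mmHg and 1.41 to 1.46 under pressure.

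**Figure D3:**
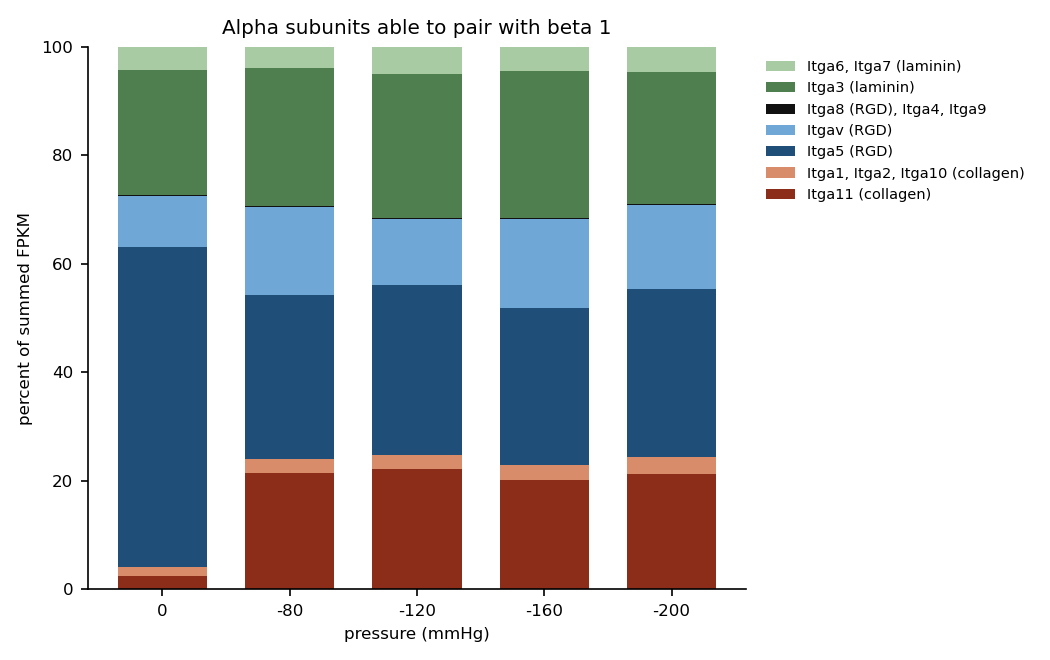
Share of each alpha chain in the summed FPKM of the alpha chains able to pair with Itgb1 (y axis, percent), by library (x axis, pressure in mmHg). Itga11 takes 2.38% at 0 mmHg and over 20% at each pressure, and Itga5 takes 59.0% and about 30%.

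Itgb1 exceeded the summed alpha chains in every library, by 2.19 times at 0 mmHg and 2.55 to 3.03 times under pressure. On the side of Itgav, the ratio of Itgb5 to Itgav FPKM was 20.6 at 0 mmHg and 3.36 to 5.29 under pressure. Itgb5 still exceeded Itgb3, by 78.0 times at 0 mmHg and 20.8 to 29.3 times under pressure. The ratio of Itgb1 to Itgb5 was 1.11 at 0 mmHg and 3.97 to 5.72 under pressure. The summed FPKM of the 10 genes was 401 at 0 mmHg and 408 to 434 under pressure.

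The pressures were then compared with each other, which leaves the 0 mmHg library out. Of the 7 measured members 0 differed at least 2-fold between any pair of pressures, as against 2.26% of all measured genes. At 1.5-fold 0 of the 7 differed as well, but the share of all measured genes at 1.5-fold was not computed. The median range over the 4 pressures was 0.22 on the log2 scale for the members and 0.22 for all measured genes. None of the 7 went steadily up or down from -80 to -200 mmHg, as 11.9% of all measured genes did. The largest differences were in Itgav, which was lower at -120 than at -80 mmHg (log2 -0.44, read ratio 0.720, 0.682 to 0.760), and in Itgb5, which was lower at -200 than at -120 mmHg (log2 -0.38, read ratio 0.763, 0.728 to 0.799). The SD of the same difference over all measured genes was 0.24 to 0.26 for each of the 6 pairs.

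Itga11, Itga5 and Itgb5 were each lower at -160 and -200 mmHg than at -80 and -120 mmHg, a description made after the values were seen. For Itga11 the read ratio of -160 to -80 mmHg was 0.853 (0.800 to 0.910) and that of -200 to -120 mmHg 0.883 (0.829 to 0.941). For Itga5 the corresponding ratios were 0.863 (0.817 to 0.912) and 0.914 (0.866 to 0.964). Itgav, Itgb1 and Itgb3 had their lowest pressure value at -120 mmHg, where Itgb1 was at 0.921 times its reads at -80 mmHg (0.902 to 0.940). With 1 library per pressure, differences of this size between cultures were not tested.

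The other 16 integrin chains supply laminin, leukocyte, platelet and epithelial receptors. Of these 7 were measured, 0 rose and 1 fell at all 4 pressures, 5 passed at no pressure, and the median difference was 0.30 to 0.39. Over all measured genes 6.49% rose, 4.46% fell and 78.1% passed at no pressure. The gene that fell was Itgb7, the beta chain of gut-homing lymphocyte integrins, from 6.14 FPKM to between 0.760 and 1.07 FPKM (313 reads and 38 to 50 reads). Its leukocyte partners were near absent, with Itga4 as above and Itgae, the alpha chain of intraepithelial lymphocytes, at 0.107 FPKM and 0.368 to 0.667 FPKM. Itga3, the main laminin-binding alpha chain here, stood at 18.9 FPKM and 23.5 to 27.9 FPKM. Itga7, the laminin receptor of muscle, stood at 1.27 FPKM and 2.59 to 3.54 FPKM. On the log2(FPKM + 1) scale it passed 2-fold at -120 mmHg alone. Per library total its reads were 2.04 times those at 0 mmHg at -160 mmHg, the lowest ratio, and 2.79 times at -120 mmHg.

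Itga6, another laminin receptor chain, stood at 2.22 FPKM and 1.60 to 1.74 FPKM, and its partner in hemidesmosomes, Itgb4, at 0.488 FPKM and 1.21 to 1.58 FPKM. The reads of Itgb4 were 2.47 to 3.24 times those at 0 mmHg per library total. With the added 1 it stayed below 2-fold at each pressure. Itga2b, the platelet fibrinogen receptor alpha chain, stood at 3.09 FPKM and 3.99 to 4.35 FPKM, and Itgb2, the leukocyte beta chain, at 4.36 FPKM and 4.91 to 6.02 FPKM. The alpha chains that Itgb2 needs were at or near 0: Itgam and Itgad had 0 reads in all libraries, Itgax at most 5 and Itgal at most 11. Itgb8, a receptor chain for latent TGF-beta, stood at 0.364 FPKM and 0.436 to 0.761 FPKM. Itga9 and Itgb6 had at most 3 and 12 reads in any library.

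The ligands moved in both directions. Of 10 measured collagen chains 0 rose and 2 fell at all 4 pressures and 7 passed at no pressure, with a median difference of -0.40 to -0.07. Col6a3 and Col6a2, chains of the beaded-filament collagen VI, fell, with 25.9 and 67.3 FPKM at 0 mmHg and 3.82 to 4.57 and 18.9 to 23.7 FPKM under pressure. Col1a1, the main fibrillar ligand of Itga11, stood at 930 FPKM at 0 mmHg and 435 to 564 FPKM under pressure and passed 2-fold at -160 and -200 mmHg. Of all measured genes 6.49% rose and 4.46% fell at all 4 pressures. Col5a2, a fibrillar collagen chain named after its values were seen, stood at 79.2 FPKM at 0 mmHg and 115 to 134 FPKM under pressure.

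Of 19 measured RGD and other ligands 5 rose and 4 fell at all 4 pressures, against 6.49% and 4.46% of all measured genes. Another 9 did not pass at any pressure, and the median difference was 0.21 to 0.37. Thbs2, a matricellular thrombospondin, rose, with 155 FPKM at 0 mmHg and 1226 to 1288 FPKM under pressure. Spp1 (osteopontin), an RGD ligand of the Itgav receptors, fell and stood at 81.7 to 117 FPKM under pressure against 1750 FPKM at 0 mmHg. A fall was also seen in Postn (periostin), a matricellular ligand of Itgav receptors, with 16.8 FPKM at 0 mmHg and 0.104 to 0.173 FPKM under pressure. Tgfbi, a matrix protein that binds integrins, fell too, with 43.8 FPKM at 0 mmHg and 2.18 to 2.79 FPKM under pressure. Outside the naming rule and chosen after their values were seen, Tnc, Ccn1, Ccn2 and Vtn also rose and Fbn1 fell. Vtn (vitronectin), the namesake ligand of the Itgb3 and Itgb5 receptors, had 0 reads at 0 mmHg and 54 to 79 under pressure, at least 19.9-fold higher at -80 mmHg against the floor of 3 reads, with a lower 95% limit of 15.6. Fn1 (fibronectin), named on the same basis as the ligand of Itga5, stood at 342 FPKM and 420.2 to 532 FPKM and passed 2-fold at no pressure.

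Of 5 measured laminin chains 0 rose and 1 fell at all 4 pressures, against 6.49% and 4.46% of all measured genes. The other 4 passed at no pressure, as did 78.1% of all measured genes, and the median difference was -0.50 to -0.08. Lama4, the alpha chain of vascular and stromal laminins, fell from 23.9 FPKM to between 3.69 and 3.91 FPKM. Lamb2, the most abundant laminin chain, stood at 31.4 FPKM and 29.2 to 34.6 FPKM.

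Most regulators and adaptors did not pass 2-fold at any pressure, which was also the case for 78.1% of all measured genes. Of 22 measured activators and regulators 1 rose (Kank1) and 1 fell (Cav1) at all 4 pressures, against 6.49% and 4.46% of all measured genes. In this list 19 did not pass at any pressure, and the median difference was 0.17 to 0.22. Kank1, an adaptor that binds talin at the rim of adhesions, rose from 2.77 FPKM to between 11.7 and 13.2 FPKM. Cav1, the caveolar coat protein that takes part in integrin endocytosis, fell from 141 FPKM to between 26.7 and 31.0 FPKM. Cd63, a tetraspanin and the most abundant gene of the list, stood at 495 FPKM and 337 to 382 FPKM. The core activators, named after their values were seen, passed at no pressure: Tln1 (talin) stood at 43.9 FPKM and 48.8 to 59.5 FPKM, and Fermt2 (kindlin) at 11.8 FPKM and 19.8 to 22.6 FPKM.

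Of 26 measured adhesion adaptors and kinases 1 rose and 0 fell at all 4 pressures, against 6.49% and 4.46% of all measured genes. Among them 23 did not pass at any pressure, beside 78.1% of all measured genes, and the median difference was 0.14 to 0.32. The gene that rose was Vcl (vinculin), which links talin to actin under tension, from 3.93 FPKM to between 9.94 and 14.3 FPKM. With a trimmed mean of log ratios, upper-quartile scaling or quantile normalization the count turned to 0 that rose and 1 that fell. Vcl then no longer passed at all 4 pressures, although it was above 0 mmHg at 4 of 4 under each, and it also did not pass with a pseudocount of 5. The gene that fell under these scalings was Parvb (beta-parvin), an adaptor that binds integrin-linked kinase, at 7.11 FPKM at 0 mmHg and 2.70 to 3.34 FPKM under pressure. Zyx (zyxin), an actin-associated protein of mature adhesions, stood at 136 FPKM and 203 to 237 FPKM. Ptk2 (focal adhesion kinase), also named after its values were seen, stood at 6.65 FPKM and 10.9 to 11.7 FPKM.

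**Figure D4:**
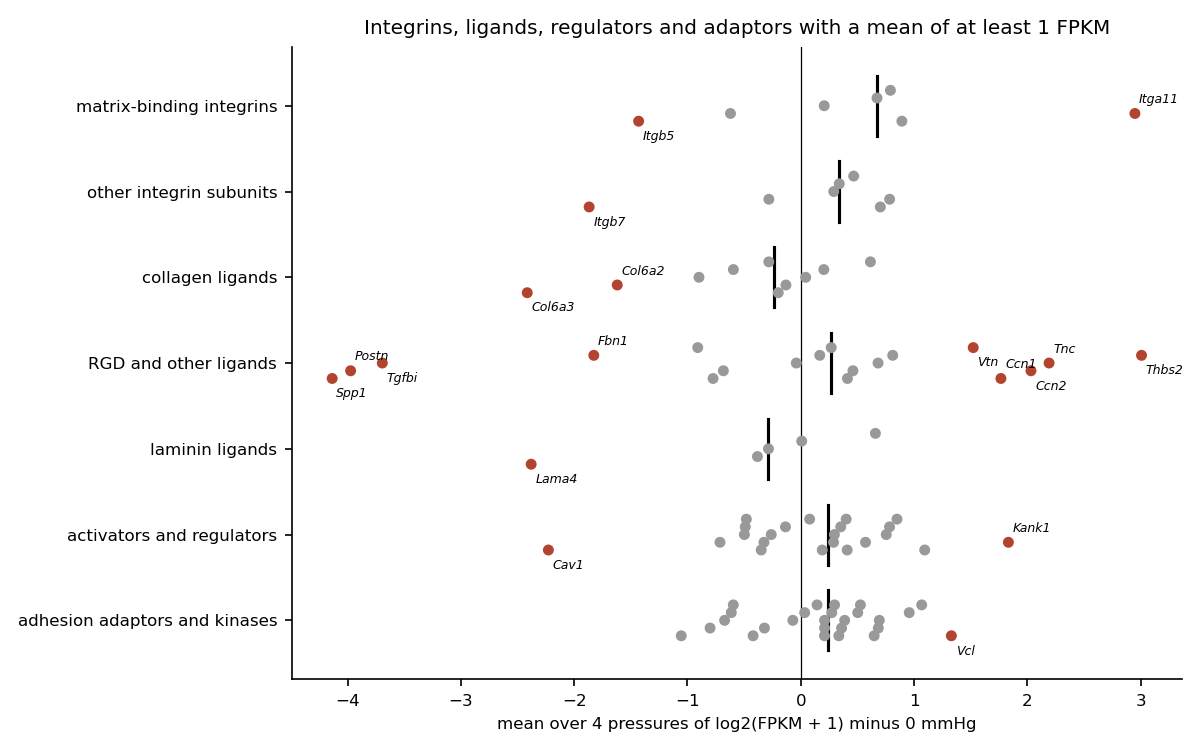
Mean difference over the 4 pressures on the log2(FPKM + 1) scale (x axis) of the measured genes of each list (rows), with the list median as a black bar and genes that passed the size rule at all 4 pressures in red with their names. Itga11 and Thbs2 lie near 3, and Spp1, Postn and Tgfbi lie below -3.5. The vertical spread of points within a row has no meaning.

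Markers of other cell types were summed beside these results. Haematopoietic markers summed to 70.5 FPKM at 0 mmHg and 107 to 117 FPKM under pressure, mostly from Cd34 and Cd14. Of the 17 on that list 5 passed 1 FPKM in any library (Cd34, Cd14, Cd68, Ly6g and Itgb2), Cd3e, Itgam and Tyrobp were at 0 in all libraries, and Ptprc, the pan-leukocyte gene, had 2 reads at -200 mmHg and 0 in the other libraries. Megakaryocyte and platelet markers summed to 9.21 FPKM at 0 mmHg and 4.91 to 5.97 FPKM under pressure. Of these 9 only Itga2b and Ppbp passed 1 FPKM, and Gp1bb and Gp6 were at 0.

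Osteoclast markers summed to 91.5 FPKM at 0 mmHg and 4.83 to 5.71 FPKM under pressure, and 3 of 9 passed 1 FPKM in any library (Ctsk, Mmp9 and Oscar). Most of the sum at 0 mmHg was Ctsk (cathepsin K), which fell from 78.1 FPKM to 1.15 to 2.31 FPKM. Mmp9, a matrix protease, fell as well, with 12.0 FPKM at 0 mmHg and 2.52 to 2.79 FPKM under pressure. Oscar, an osteoclast receptor, lay on the other side, at 0.383 FPKM at 0 mmHg and 0.796 to 1.009 FPKM under pressure. Dcstamp, the fusion receptor of osteoclasts, was at 0 in all libraries, and Acp5, their acid phosphatase, had at most 0.118 FPKM. Tnfrsf11a, also on the list, had 108 reads (0.981 FPKM) at 0 mmHg and at most 2 in a pressure library. Atp6v0d2 had 4 reads at 0 mmHg and 0 under pressure. Calcr went the other way, with 0 reads at 0 mmHg and at most 3 under pressure, and Ocstamp had at most 1 read in any library. Endothelial markers summed to 1.22 FPKM and 3.64 to 5.75 FPKM, with Plvap the 1 of 10 above 1 FPKM and Emcn at 0. Smooth muscle and pericyte markers summed to 370 FPKM and 381 to 421 FPKM, nearly all from Acta2, with 4 of 9 above 1 FPKM (Acta2, Cnn1, Smtn and Notch3) and 0 of 9 at 0 in all libraries. Epithelial markers summed to 1.09 FPKM and 0.512 to 0.791 FPKM, with Krt19 the 1 of 8 above 1 FPKM and Epcam, Cdh1 and Krt5 at 0. Measured were 4 haematopoietic, 2 megakaryocyte and platelet, 2 osteoclast, 1 endothelial, 4 smooth muscle and pericyte and 0 epithelial markers. By the size rule Cnn1 (1.73 FPKM at 0 mmHg and 5.81 to 7.67 FPKM under pressure), Notch3, Plvap, Cd14 and Cd68 rose. Ctsk, Mmp9 and Ppbp fell. Over all measured genes 6.49% rose and 4.46% fell. Notch3, Plvap, Cd14 and Cd68 each lost the call under at least 1 of the 3 other scalings, while the remaining markers kept it. The part of these other cell types in the integrin differences was not tested.

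The genes with the most similar pattern were found by the root mean square difference of centred log2(FPKM + 1) values over the 5 libraries. Closest to Itga11 were Slc25a23, a mitochondrial carrier (0.042; 2.58 FPKM at 0 mmHg and 22.8 to 26.7 FPKM under pressure), Hoxb8, a homeobox factor (0.079), and Thbs2 (0.079). Closest to Itgb5 were Sdc3, a cell-surface proteoglycan (0.065; 7.35 FPKM and 1.90 to 2.47 FPKM), Syne3, a nuclear envelope protein (0.076), and Lmna, which encodes lamins A and C (0.080; 111 FPKM and 37.5 to 45.6 FPKM). Closest to Itgb1 were Peg12, an imprinted gene (0.013), Tsr1, a ribosome assembly factor (0.017), and Hbs1l, a ribosome rescue factor (0.019). Peg12 stood at 1.48 FPKM at 0 mmHg and 2.69 to 3.04 FPKM under pressure, and Syne3 at 4.16 FPKM and 0.805 to 1.19 FPKM. At such low levels the added 1 shrinks the differences, so in FPKM these 2 genes differed by a larger fold than Itgb1 and Itgb5.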

How the data were processed

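The deposited data are 1 table of FPKM by gene, whose 5 columns are the 5 libraries. Per the submitters' processing notes it was made with HISAT2, SAMtools and featureCounts 1.5.0-p3, and the genome build named there is rn6 (rat). The gene IDs are mouse Ensembl IDs, of which 54349 of 55401 matched GENCODE M21 (GRCm38) with their version and 55141 in any version, so mouse annotation was used here. How the authors' counting treated strand was not given in these sources. Multiplied by exon length and divided by the library's smallest step, FPKM came out as whole reads in all libraries for 98.8% of genes (tolerance 0.001 reads). This gave the reads and library totals, which served for intervals (95%) and floors (3 reads) only. Itga6 gave no whole reads, so it has FPKM only.

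Values were compared as log2(FPKM + 1), with genes at a mean of at least 1 FPKM called measured. No model pooling the pressures was run. The members and all gene lists were chosen with earlier results of these data known. Named were all integrin chains, up to 4 genes past the size rule and the most abundant gene in each list, and the 3 nearest patterns of Itga11, Itgb5 and Itgb1 among genes whose symbol is not a predicted or clone name. Alternatives were pseudocounts of 0.1 and 5, no filter or 5 FPKM, a 1.5-fold rule, 3 other scalings (trimmed mean of log ratios, upper quartile, quantile), and other sets of alpha chains. The functions were tested on simulated reads. Software was matplotlib 3.10.9, scipy 1.17.1, pandas 2.3.3 and numpy 2.4.6 under Python 3.11.15.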

Additional observations from a re-analysis of the deposited data

How the results depend on the processing

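Itga11 was the member that rose and Itgb5 the member that fell at all 4 pressures under every alternative run. The number that rose went from 1 to 2 with a pseudocount of 0.1 (Itga1 added). It went to 3 with a 1.5-fold rule (Itga1 and Itgav added), and the number that fell was 1 throughout. The all-gene shares of 6.49% and 4.46% hold for the main rule only, and those under the alternatives were not computed. The mean of the 4 medians of the members, 0.67 as reported, was 0.28 with a pseudocount of 5, 0.50 with log ratios scaled by their trimmed mean (leaving out 30% on either side), 0.46 with upper-quartile scaling and 0.24 with no filter, which adds Itga2, Itga4 and Itga8. With Itga2 at its bound against the floor of 3 reads the last value was 0.44. The mean of the 4 medians over all measured genes moved as well. It was 0.15 as deposited, 0.088 with a pseudocount of 5, 0.0020 with the trimmed mean and -0.035 with upper-quartile scaling. The collagen-binding share averaged 24.0% over the pressures and 28.2% with Itgav left out. Between pressures 0 members passed with either pseudocount, quantile normalization, no filter or the 1.5-fold rule, again with no all-gene share computed. Of 96 counts of the other lists 17 moved by over 1.5 times, all on counts of 1 or 0 as reported. Of 50 mean differences of single members 17 moved by more than their range over the pressures and 0 reversed.

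No paired analysis was possible because each condition has 1 library. Depth limits Itga2, Itga4 and Itga8, which had at most 35 reads in any library.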
